A study of Homo sapiens with 4 samples.

Results

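The Kruppel-like factors are transcription factors that bind GC-rich DNA with zinc fingers at the carboxy terminus of the protein. The genes described here are KLF2, KLF4, KLF5, KLF6, KLF7, KLF9, KLF10, KLF11, KLF13 and KLF16, and their m6A sites were taken as every position of the site list that lay, on the same strand, in an exon of 1 of these 10 genes in the GENCODE annotation. Of the 18789 sites predicted in C643 cells, 17 met this rule. KLF2 held 2 sites, KLF6 held 1 site, KLF13 held 7 sites and KLF16 held 7 sites. KLF4, KLF5, KLF7, KLF9, KLF10 and KLF11 held none.

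C643 is an established cell line from a human anaplastic thyroid carcinoma, and the study mapped m6A in its polyadenylated RNA by miCLIP2, which fixes an m6A antibody to RNA with ultraviolet light and reads the bound position from the end of the truncated cDNA. All cells were untreated wild-type C643 cells, with 3 biological replicates in 4 libraries, because replicate 1 was sequenced as 2 technical libraries. The sites were called from these libraries together by m6Aboost, a classifier trained on sites that depend on the methyltransferase Mettl3, and each listed site has a prediction score between 0 and 1. The list holds no value per replicate and no read count, so no spread between replicates can be given and the depth at a site is unknown. An unlisted position may be unmodified, may have had too few reads, or may have failed the replicate filter or the classifier.

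In N6-methyladenosine (m6A) an adenosine within the RNA chain carries a methyl group on its amino nitrogen. The mark is placed by a METTL3 and METTL14 complex, mostly at the pentamer DRACH, in which D is A, G or T, R is A or G, and H is A, C or T, and it is bound by YTH proteins that act on the stability and translation of the mRNA. In mRNA it is known to concentrate in long internal exons and around the stop codon. Several Kruppel-like factors are immediate early or growth-regulated genes with short-lived mRNAs. A Kruppel-like factor gene typically has 1 long exon that codes for the regulatory domain and the beginning of the finger array, followed by 1 or more exons that code for the rest of the fingers.

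The 17 sites are shown as the 21 nt of the RNA strand centred on the listed A, written as DNA from the GRCh38 reference, 5′ to 3′, with the pentamer around the A in capitals. They are shown in full because the pentamers, and how close some of the sites lie to each other, are referred to below.
KLF2 site 1, chr19:16327112-16327132, plus strand: tatttattGGACCcagagaac
KLF2 site 2, chr19:16327203-16327223, plus strand: cccgtctgTGACTgaaggccc
KLF6 site 1, chr10:3781848-3781868, minus strand: cttctccgGAACTgagcaggg
KLF13 site 1, chr15:31372638-31372658, plus strand: aggttcggGAACAcgctgggg
KLF13 site 2, chr15:31372735-31372755, plus strand: gtgctcacTGACGtttgtgcc
KLF13 site 3, chr15:31373248-31373268, plus strand: tttgttggAAACAgtgggcag
KLF13 site 4, chr15:31373331-31373351, plus strand: cttcacagAGACCattctgta
KLF13 site 5, chr15:31373355-31373375, plus strand: agagaccgGAACAttgtgact
KLF13 site 6, chr15:31373369-31373389, plus strand: tgtgacttGGACCttttcagg
KLF13 site 7, chr15:31373536-31373556, plus strand: tttcccctGGACTcctcctcc
KLF16 site 1, chr19:1854387-1854407, minus strand: tgtagtgaGGACCcacgggga
KLF16 site 2, chr19:1854299-1854319, minus strand: ggggcctgAGACTggacctgg
KLF16 site 3, chr19:1854294-1854314, minus strand: ctgagactGGACCtgggtctg
KLF16 site 4, chr19:1854216-1854236, minus strand: catgatacTAACTttcttccc
KLF16 site 5, chr19:1854099-1854119, minus strand: ggtggagtGGACTtctgggag
KLF16 site 6, chr19:1853338-1853358, minus strand: tgcctcgtGGACTggaagcag
KLF16 site 7, chr19:1852610-1852630, minus strand: gggttccaGAACTctataact

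All but 1 of the sites lay in a 3′ UTR. The 3′ UTRs of KLF2, KLF13 and KLF16 held 16 of the 17 sites (94.1%, 95% Wilson interval 73.0 to 99.0%), and the long coding exon of KLF6 held the other site (5.88%, interval 1.05 to 27.0%). None lay in a 5′ UTR or in the remaining coding exons. Over the 17499 sites in protein-coding transcripts that hold a site, 55.4% lay in the 3′ UTR and 42.1% in coding sequence. Transcript region is an input of the classifier, so these shares describe the list. None of the 17 sites lay in an exon of another gene on the same strand.

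**Figure D1:**
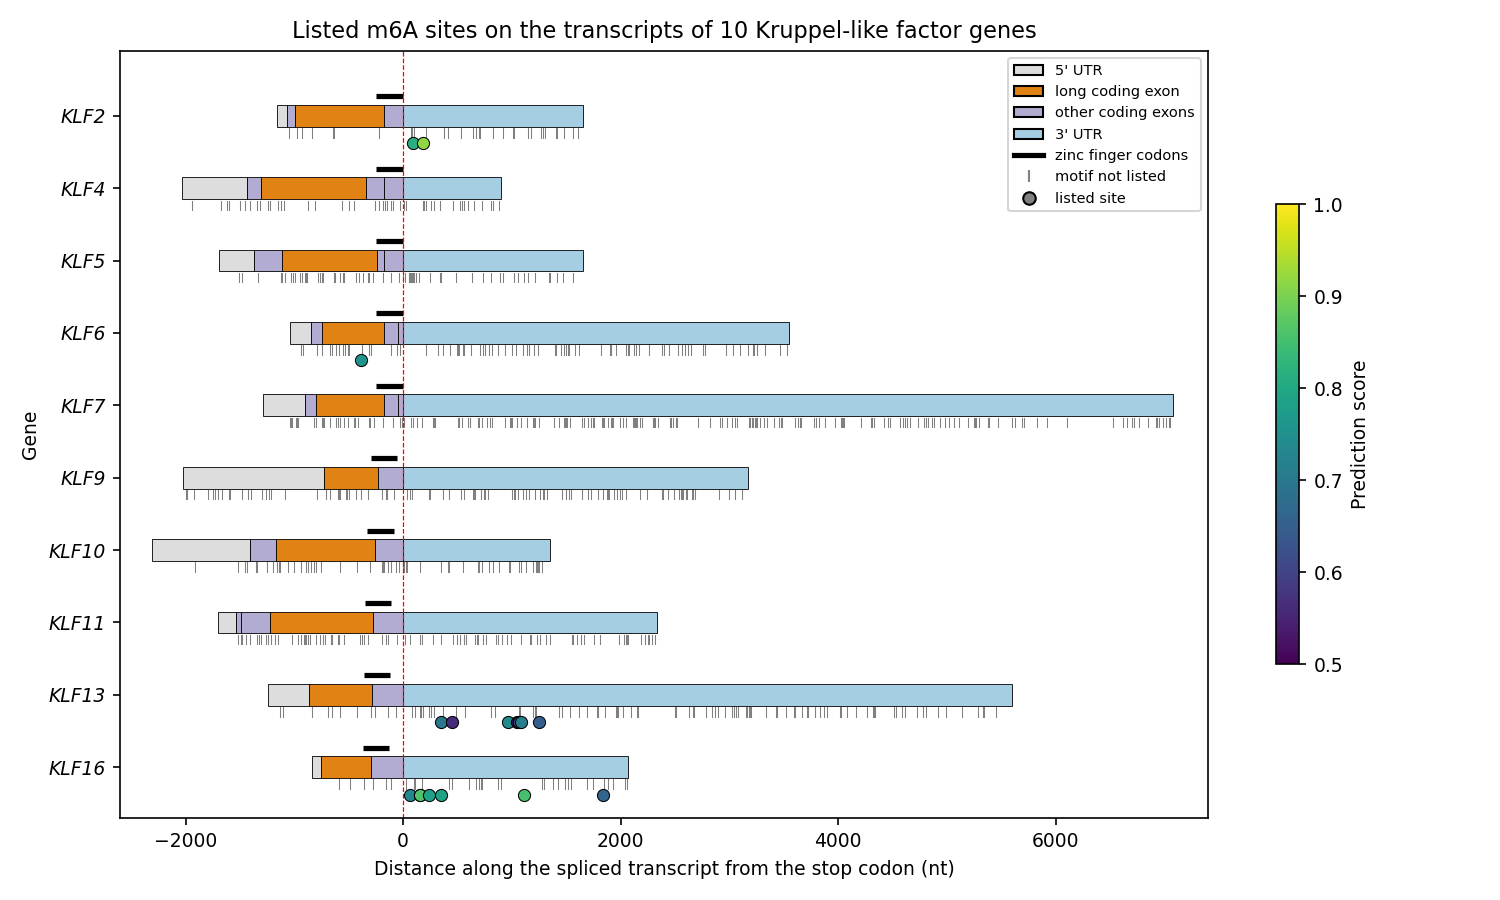
Map of the chosen transcript of each of the 10 genes, drawn along the spliced transcript in nt from the stop codon (dashed line), with the long coding exon in orange, the other coding exons in purple, UTRs in grey and blue, and the zinc finger codons as black bars. Grey ticks are DRACH motifs that are not in the list and circles are the 17 listed sites, coloured by prediction score. 16 circles lie to the right of the stop codon, in KLF2, KLF13 and KLF16, and the circle of KLF6 lies left of it at -391 nt.

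The genes fall into branches by how their proteins act. KLF2, KLF4, KLF5, KLF6 and KLF7 belong to the branch known mostly for activating transcription, and 2 of these 5 genes held 3 sites in all. KLF9, KLF10, KLF11, KLF13 and KLF16 belong to the branch whose proteins recruit the Sin3A corepressor, and 2 of these 5 genes held 14 sites in all. Of the DRACH motifs in 3′ UTRs, 2 of 303 were listed in the activating branch and 13 of 268 in the Sin3A branch. Over all coding transcripts that hold a site, 9.05% of such motifs were listed. The same number of genes in each branch thus held a site, while KLF13 and KLF16 accounted for most of the sites. Both have 2 exons, as does KLF9, which held none.

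KLF2, known for its part in the quiescence of endothelial cells and T cells, lies at chr19:16324826-16328685 on the plus strand. Its sites were both in exon 3 of 3, 93 and 184 nt after the first base of the stop codon and 91 nt apart. Their scores were 0.813 at a GGACC and 0.917 at a TGACT. The latter was the highest score in any of the 10 genes, and 92.6% of all listed sites scored lower. The 3′ UTR of KLF2 is 1654 nt long and has 28 DRACH motifs, of which only these 2 were listed, and the 2 GGACT motifs of this UTR were unlisted.

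KLF6, a zinc finger protein known as a tumour suppressor, lies at chr10:3775996-3785209 on the minus strand. Its single site was at chr10:3781858 in exon 2 of 4, its long coding exon, at -391 nt relative to the stop codon and 217 nt from the nearest exon junction. This was a GAACT with a score of 0.760, and 51.5% of all listed sites scored lower. The exon has 13 DRACH motifs, of which this was the only one listed. No site was listed among the 69 DRACH motifs of its 3′ UTR of 3543 nt (0%, Wilson interval 0 to 5.27%). The UTR holds 7 of the gene's 8 GGACT motifs, and 29 of the 69 motifs lie 2000 nt or more into it. KLF6 was thereby the only one of the 4 genes with a site in which the 3′ UTR had none.

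KLF13, known as a regulator of the chemokine gene CCL5 in T cells, lies at chr15:31326835-31377899 on the plus strand. Its 7 sites all lay in exon 2 of 2, between 351 and 1249 nt after the stop codon, in a 3′ UTR of 5600 nt. In order from the stop codon, the scores were 0.697, 0.559, 0.739, 0.516, 0.653, 0.708 and 0.647. All 7 were below the median of all listed sites, 0.754, and the median of the gene was 0.653. The lowest, at chr15:31373341, was the lowest of the 17, and only 2.94% of all listed sites scored lower.

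The KLF13 sites lay in the part of its 3′ UTR nearer the stop codon. From site 1 to site 7, 6 of 16 DRACH motifs were listed (37.5%, Wilson interval 18.5 to 61.4%). After site 7, none of 70 was (interval 0 to 5.20%). Of these 70 motifs 59 lie 2000 nt or more into the UTR, where 1.36% of motifs were listed in all coding transcripts that hold a site, so few would be listed there at the share of the list. The stretches were also bounded by the listed sites themselves, and the contrast is a description. Sites 4, 5 and 6 formed the tightest group, with 24 and 14 nt between neighbours, and the 21 nt windows of sites 5 and 6 overlap, as the shared bases in the sequences above show.

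KLF16, first described as a regulator of dopamine receptor genes, lies at chr19:1852399-1863579 on the minus strand. Its 7 sites also lay in exon 2 of 2, between 64 and 1841 nt after the stop codon, in a 3′ UTR of 2060 nt. In order from the stop codon, the scores were 0.730, 0.910, 0.861, 0.783, 0.787, 0.853 and 0.661. The median was 0.787, and 5 of the 7 were above the median of all listed sites. The highest, at chr19:1854309, was an AGACT with 91.1% of all listed sites scoring lower, and the lowest was the site farthest from the stop codon.

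KLF16 had the densest sites of the 10 genes. Of the 34 DRACH motifs in its 3′ UTR, 7 were listed (20.6%, Wilson interval 10.3 to 36.8%), and of the 11 motifs within the initial 500 nt of the UTR, 5 were listed (45.5%, interval 21.3 to 72.0%). In all coding transcripts that hold a site the shares were 9.05% of 3′ UTR motifs and 20.4% of those in the initial 500 nt, both just below the KLF16 intervals. KLF16 was singled out by these same counts as the densest of the 10 genes. The intervals do not allow for that choice, so the difference is a description. KLF16 had 3.40 sites per kb of 3′ UTR, against 1.25 in KLF13, 1.21 in KLF2 and 1.81 over all coding transcripts that hold a site. Sites 2 and 3 were only 5 nt apart, so that the AGACT of site 2 and the GGACC of site 3 adjoin, and each stands in the flank of the other's window. Their scores of 0.910 and 0.861 were the highest of the gene.

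**Figure D2:**
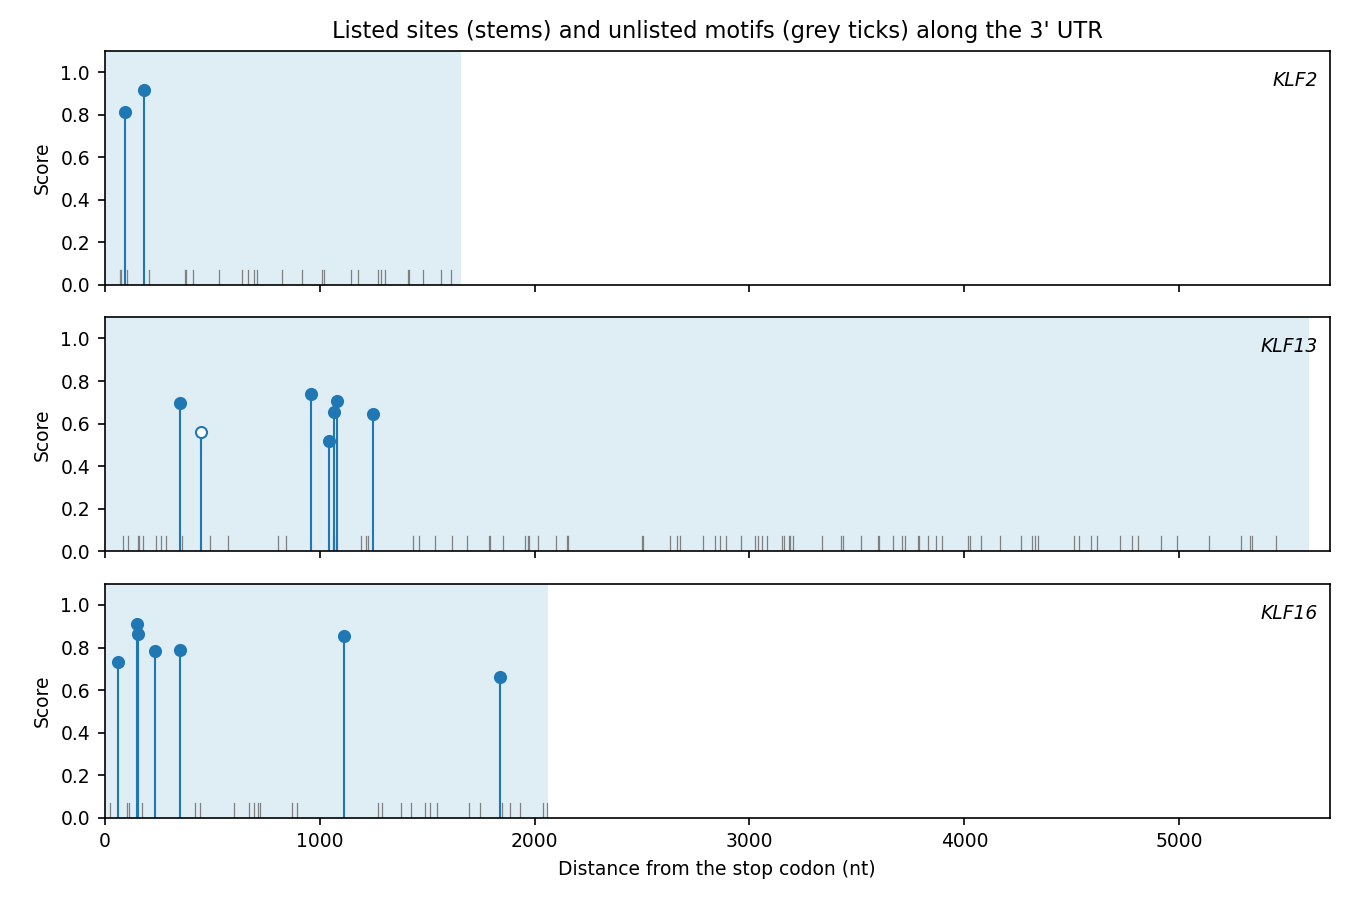
Prediction score (vertical axis, 0 to 1) of each listed site against its distance from the stop codon in nt (horizontal axis) in the 3′ UTRs of KLF2, KLF13 and KLF16, whose extent is shaded. Stems with filled circles are DRACH sites, the open circle is the KLF13 site outside DRACH, and grey ticks are unlisted DRACH motifs. The sites of KLF13 lie between 351 and 1249 nt, with only unlisted motifs in the rest of its 5600 nt UTR, while 5 of the 7 sites of KLF16 lie within 352 nt of the stop codon.

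Having 7 sites was not rare among genes with sites. Of the 19183 protein-coding genes with a chosen transcript, 3616 held a site in it (18.9%), and of the 10 Kruppel-like factor genes 4 did (40.0%, Wilson interval 16.8 to 68.7%). The other 8 Kruppel-like factor genes, which are not among these 10, held no site, so the 40.0% does not stand for the whole family. Among the 3616, 918 held at least 7 sites (25.4%), the median being 3 and the quartiles 2 and 7. Of those 918 genes, 152 had all their sites in the 3′ UTR (16.6%, interval 14.3 to 19.1%), as KLF13 and KLF16 did.

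To compare parts of the transcript, each DRACH motif on the transcript strand was counted as listed or not. The long coding exon was defined as the exon of the chosen transcript with the most coding nucleotides, wherever it lies. It is exon 1 of 2 in KLF9, KLF13 and KLF16 and an internal exon in the other genes of the 10. In the transcripts compared with them it can also be the last exon, and the comparison was not matched for this. In the 10 genes the long coding exon held 457 coding nt (KLF16) to 973 coding nt (KLF4), with a median of 724 nt. The median was 268 nt in coding transcripts that hold a site. The long coding exons of these genes are thus longer than is usual for the genes in the list.

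Nearly all motifs of the long coding exons were unlisted. Of 133 DRACH motifs in the long coding exons of the 10 genes, 1 was listed (0.752%, Wilson interval 0.133 to 4.14%). In the 4 genes with a site, it was 1 of 28 (3.57%, interval 0.633 to 17.7%). Over all coding transcripts that hold a site and have at least 2 coding exons, 14.1% of 24687 such motifs were listed, a share that lies within the interval of the 4 genes and above the interval of all 10. The share over all 10 includes 6 genes in which nothing was listed, and the list analysed here holds no expression values for them.

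Motifs were also split by their distance to exon junctions, near which m6A is known to be sparse. More than 100 nt from a junction, 1 of the 20 long-exon motifs in the 4 genes was listed (5.0%, interval 0.888 to 23.6%), against 18.8% in all coding transcripts that hold a site. Within 100 nt, none of 8 was, against 5.65%. With these counts, a difference from the rest of the list could not be told in either class.

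The zinc finger codons held no site. In each of the 10 genes a script found 3 C2H2 fingers, spanning 243 nt from the initial cysteine codon to the last histidine codon. In 9 of the 10 genes the array begins in the long coding exon, the exception being KLF4, in which it begins in exon 4. Of 40 DRACH motifs in finger codons, none was listed (0%, Wilson interval 0 to 8.76%), and of the 10 that lie in the 4 genes with a site, none was (interval 0 to 27.8%). The coding exons after the long coding exon, which carry the rest of the fingers, had 0 of 42 listed in the 10 genes (interval 0 to 8.38%) and 0 of 9 in the 4 genes (interval 0 to 29.9%). With the 24 motifs in coding exons before the long one, which code for no fingers, the other coding exons had 0 of 66 listed in the 10 genes (interval 0 to 5.50%) and 0 of 11 in the 4 genes (interval 0 to 25.9%), against 3.01% of 75912 motifs in the other coding exons of all coding transcripts that hold a site. At that background, 0 of 11 is not a difference.

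The finger codons are similar between the genes, so the same motif can be followed across them. Aligned on the initial cysteine codon, the fingers had a DRACH motif at 15 positions in at least 1 gene, and none of these positions was listed in any gene. These are the same 40 motifs as above, of which only 10 lie in genes with a site. The position shared most widely, 215 nt from the cysteine codon in the last finger, was a motif in 8 of the 10 genes, KLF2 and KLF13 lacking it. It is shown for KLF6 and KLF16, the 2 genes that have this motif and also a listed site elsewhere. KLF4 and KLF9, which held no site at all, are shown for comparison of the sequence only.
KLF6 finger motif, chr10:3779563-3779583, minus strand: tccaggtcTGACCacctggcc
KLF16 finger motif, chr19:1854609-1854629, minus strand: acccgcagTGACCacctggcc
KLF4 finger motif, chr9:107485775-107485795, minus strand: tccaggtcGGACCacctcgcc
KLF9 finger motif, chr9:70387854-70387874, minus strand: atgaggagTGACCacctcaca

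The capitals again mark the pentamer around the A. The pentamer is TGACC in KLF6, KLF16 and KLF9 and GGACC in KLF4. In KLF6 it lies in exon 4, 17 nt from a junction. In KLF16 it lies in exon 2, 141 nt from the junction and in the same exon as the 7 listed sites. Within exon 2 of KLF13 and of KLF16, the finger codons were unlisted and the 3′ UTR carried every site of the gene. The coding part of that exon has only 3 DRACH motifs in KLF13 and 3 in KLF16, against 94 and 34 in their 3′ UTRs. With so few coding motifs, a difference between the parts of the exon could not be told.

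In the 3′ UTR, 15 of 571 DRACH motifs of the 10 genes were listed (2.63%, Wilson interval 1.60 to 4.29%). In the 4 genes with a site it was 15 of 225 (6.67%, interval 4.08 to 10.7%), against 9.05% of 94392 in all coding transcripts that hold a site, which lies within that interval. The genes differed among themselves, from 0 of 69 in KLF6 over 6 of 94 in KLF13 (6.38%, interval 2.96 to 13.2%) and 2 of 28 in KLF2 (7.14%, interval 1.98 to 22.6%) to the 20.6% of KLF16. The intervals of KLF6 and KLF16 did not overlap, and that of KLF13 overlapped with both. Over all exons, 16 of 268 motifs were listed in the 4 genes (5.97%, interval 3.71 to 9.48%) and 7.33% of 211617 in all coding transcripts that hold a site.

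**Figure D3:**
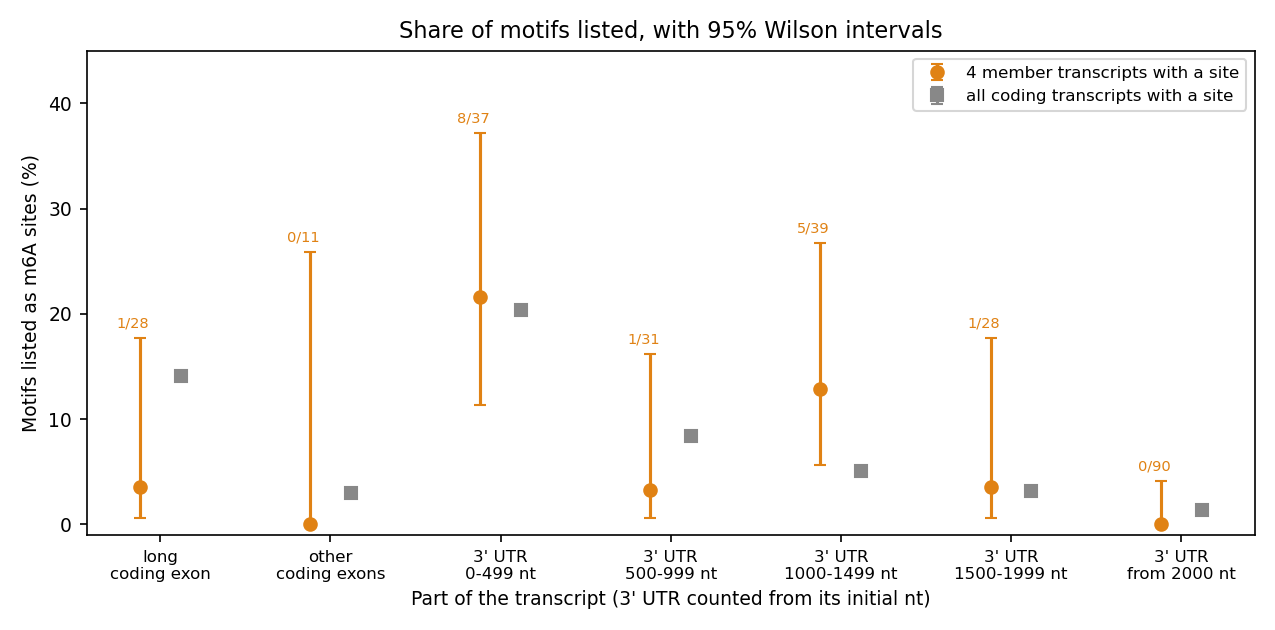
Share of DRACH motifs that are listed as m6A sites (vertical axis, %) in each part of the transcript (horizontal axis), for the 4 Kruppel-like factor transcripts with a site (orange circles, with listed over all motifs printed above) and for all coding transcripts with a site (grey squares). Bars are 95% Wilson intervals, which for the grey squares are smaller than the symbol. The grey square lies within the orange interval in every part but the bin that begins at 1000 nt, where 12.8% stands against 5.03%.

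Along the 3′ UTR, the share of the 4 genes together was close to that of the list near the stop codon, but most of the listed motifs there were in KLF16. In bins of 500 nt counted from the beginning of the UTR, the initial bin had 8 of 37 motifs listed (21.6%, interval 11.4 to 37.2%), against 20.4% in all coding transcripts that hold a site. KLF16 had 5 of these 8 sites, and KLF2, KLF6 and KLF13 together had 3 of 26 motifs listed (11.5%, interval 4.0 to 29.0%), with 2 of 9 in KLF2, 1 of 11 in KLF13 and 0 of 6 in KLF6. In the bin from 500 nt it was 1 of 31 (3.23%, interval 0.572 to 16.2%), against 8.42%. In that from 1000 nt it was 5 of 39 (12.8%, interval 5.60 to 26.7%), against 5.03%, and 4 of these 5 sites were the KLF13 sites 4 to 7. In that from 1500 nt 1 of 28 was listed (3.57%), against 3.18%, and from 2000 nt on 0 of 90 (interval 0 to 4.09%), against 1.36%.

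The distances themselves show the same. The 16 UTR sites lay 64 to 1841 nt after the stop codon, and the median distance was 400 nt. For the 9695 UTR sites of all coding transcripts the median was 297 nt and the quartiles were 124.5 and 650 nt. Less than 200 nt separated 5 of the 16 from the stop codon (31.2%, interval 14.2 to 55.6%), against 38.2% of the 9695. These were both sites of KLF2 and sites 1 to 3 of KLF16, while KLF13 had none so close. All 16 sites lay in the last exon. Neighbouring sites of 1 gene were 5 to 761 nt apart, with a median of 91 nt over 13 gaps.

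The motifs were mostly DRACH, as in the rest of the list. Of the 17 sites, 16 were at DRACH (94.1%, Wilson interval 73.0 to 99.0%), against 88.7% of all listed sites. The exception was KLF13 site 2 at chr15:31372745, a TGACG with a score of 0.559, below which 10.5% of all listed sites scored. Its last base is the one that departs from DRACH, as the window above shows.

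The pentamers were varied, with 10 kinds among 17 sites. GGACC was the most frequent with 4 sites, in KLF2, KLF13 and KLF16, followed by GGACT with 3 sites, in KLF13 and KLF16. In the whole list the order was the other way, with 4072 sites at GGACT and 1911 sites at GGACC in all. Counts of 4 and 3 sites are too few to tell the order of these pentamers in the Kruppel-like factor genes. Among the 17, GAACA had 2 sites, in KLF13. GAACT had 2 sites, in KLF6 and KLF16. The remaining 6 pentamers had 1 site each.

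Most GGACT motifs of these genes were unlisted, as were most in all coding transcripts that hold a site. In the 4 genes with a site 3 of 27 GGACT motifs were listed (11.1%, Wilson interval 3.85 to 28.1%), against 25.9% in all coding transcripts that hold a site, a share just within that interval. Of the 11 GGACT motifs of KLF13, 10 were unlisted, and of the 8 in KLF6 all were. Of these unlisted motifs, 7 in KLF13 and 3 in KLF6 lie 2000 nt or more into the 3′ UTR. In that part, 5.72% of GGACT motifs were listed in all coding transcripts that hold a site. KLF16 had 2 of 5 listed, and KLF2 had 0 of 3. Of the 26 GGACC motifs in the 4 genes, 4 were listed, which is 1 site more than for GGACT. In the long coding exons of all 10 genes, none of 12 GGACT motifs was listed (interval 0 to 24.2%), against 44.4% in all coding transcripts that hold a site, but only 3 of the 12 lie in genes with a site.

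The scores of the 17 sites spanned 0.516 to 0.917. Their median was 0.739 (quartiles 0.661 and 0.813). The median of all listed sites was 0.754 (quartiles 0.640 and 0.847), and 8 of the 17 were above that median. A score of at least 0.7 was reached by 11 of the 17 (64.7%, interval 41.3 to 82.7%), against 62.9% of the list. The 3′ UTR sites of all coding transcripts, the class to which 16 of the 17 belong, had a higher median of 0.801. The scores varied widely within KLF13 and KLF16 as well as between genes.

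**Figure D4:**
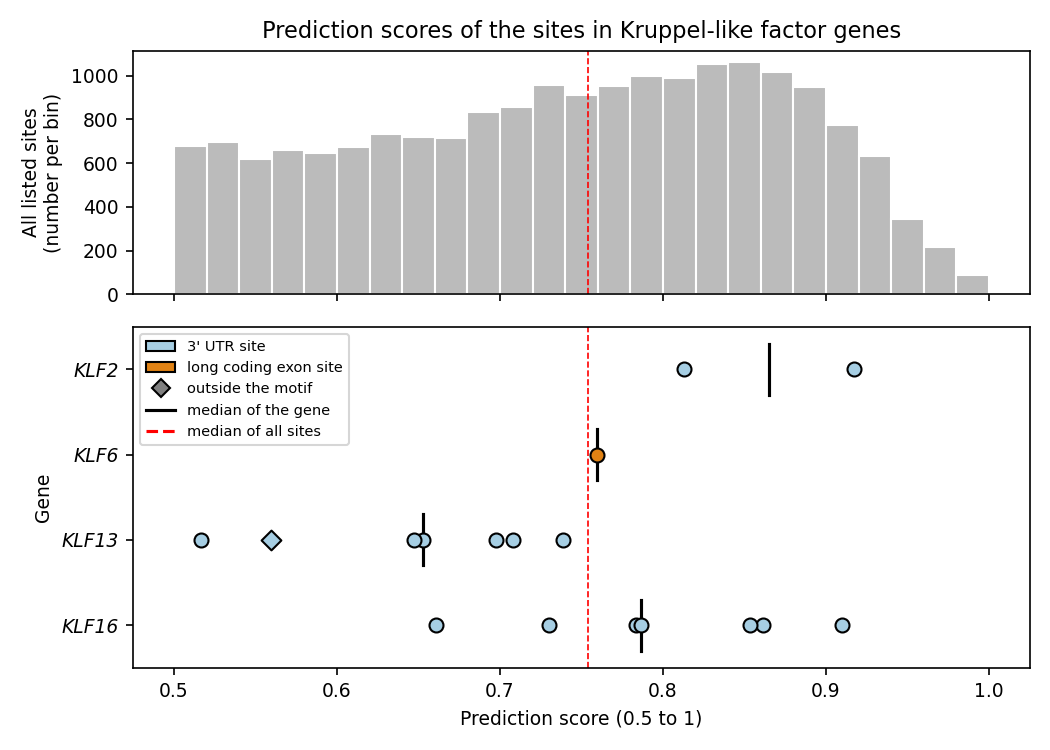
Upper panel, number of all 18789 listed sites per bin of prediction score, and lower panel, prediction score of each of the 17 sites by gene, on the same horizontal axis. Black bars are gene medians, the dashed line is the median of all listed sites at 0.754, the orange circle is the coding site of KLF6 and the diamond is the KLF13 site outside DRACH. All 7 sites of KLF13 lie left of the line and both sites of KLF2 lie right of it.

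KLF13 and KLF16 had the same number of sites in the same part of the transcript, and their scores overlapped between 0.661 and 0.739. The 5 highest scores of KLF16, 0.783 to 0.910, lay above every score of KLF13. The median of 0.801 over all 3′ UTR sites lay above the medians of KLF13 (0.653) and KLF16 (0.787) and below that of KLF2 (0.865, the mean of its 2 scores). The site of KLF6, at 0.760, was above the median of sites in long coding exons, 0.719. Relative signal within a gene, sequence and region all enter the score, so it does not measure how much of the mRNA is modified.

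Base composition differed between the genes with and without sites. The 3′ UTRs of the 6 genes without a site had 31.8 to 41.8% G and C, with a median of 36.3%. Those of KLF6, KLF2, KLF13 and KLF16 had 42.0, 51.6, 53.7 and 63.7%, against a median of 52.4% in all coding transcripts that hold a site. The groups of genes did not overlap, but KLF6, which had no UTR site, and KLF7, the highest of those without a site, were nearly equal. The split did not hold in the rest of the family, where no gene had a site. There KLF1 and KLF15 had 54.9 and 52.9%, and KLF14 and KLF17 had 47.4 and 47.2%. KLF3, KLF8 and KLF12 had 36.5, 38.3 and 37.6%. In the long coding exon, KLF2 (77.5%), KLF13 (76.4%) and KLF16 (79.6%) were above the other 7 genes and above the median of 61.6% in the list, and KLF6, the gene with the coding site, had 55.6%.

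The GC-rich long exons had few motifs to list. DRACH motifs numbered 7.34 per kb in the long coding exon of KLF2, 10.4 in that of KLF13 and 6.56 in that of KLF16, which amounts to 6, 6 and 3 motifs. That of KLF6 had 22.6 per kb, and those of the 6 genes without a site 11.3 to 29.7 per kb, against 16.2 over all coding transcripts that hold a site. In the 3′ UTR the density was alike, at 16.5 per kb in KLF16, 16.8 in KLF13, 16.9 in KLF2 and 19.5 in KLF6, against 17.6. The part of base composition in where sites were listed was not tested.

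The 6 genes without a site were not short of motifs. KLF4, 1 of the factors used to reprogram cells to pluripotency, has 47 DRACH motifs in its chosen transcript, and KLF5, a factor of proliferating epithelia, has 63. KLF7, known from neurons, has 189, the most of the 10 genes, in a transcript with a 3′ UTR of 7076 nt. KLF9, which responds to steroid and thyroid hormones, has 101. The TGF-beta-inducible factors KLF10 and KLF11 have 59 and 87. Of GGACT, KLF7 has 12 motifs, KLF9 has 6, KLF4 has 4, KLF11 has 3, KLF5 has 2 and KLF10 has none. Since the list holds no reads, lack of methylation and too little mRNA cannot be told apart for these genes.

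Most relatives of these genes held no site, as did most protein-coding genes, of which 18.9% held one. KLF1, KLF3, KLF8, KLF12, KLF14, KLF15, KLF17 and KLF18, the other 8 Kruppel-like factor genes, held no site. Of the 9 genes of the SP factors, which share the finger arrangement, SP2 held 2 sites, 1 in its long coding exon and 1 in its 3′ UTR 229 nt after the stop codon, with scores of 0.503 and 0.754, and the others held none. EGR1, EGR2, EGR3 and EGR4, immediate early genes that also code for 3 fingers, held none. The thyroid follicular genes TG, TSHR, SLC5A5, PAX8, NKX2-1 and FOXE1 held no site, which does not bear on their expression, as a site list does not measure it.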

How the data were processed

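miCLIP2 sites of untreated C643 cells were analysed from 1 list. Per the labels and methods, the authors aligned reads to GRCh38 with STAR (2.7.3a) and removed duplicates by molecular identifiers (UMI-tools 1.0.0). They called peaks in each replicate with PureCLIP, kept those that recurred between replicates and classified peaks at A with m6Aboost. SAMtools (1.9) and bedtools (2.27.1) are named in the submitters' processing notes. The deposited score is a fraction from 0 to 1, pooled over replicates. Only sites called modified are listed, so peaks rejected by the classifier were not analysed here.

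Positions were read as BED, given 1-based, and assigned with GENCODE release 44, a later release than the authors used on the same assembly. The longest spliced protein-coding transcript per gene was chosen, with a transcript support level up to 3 (or not given) and an annotation level up to 2. Motifs were counted on the transcript strand. Fingers were found in the translated coding sequence as cysteine, 2 to 4 residues, cysteine, 12 residues, histidine, 3 to 5 residues, histidine. Shares have 95% Wilson intervals, which cover counting of motifs or sites only; genes with a site were compared with the 3616 coding transcripts that hold a site, which include them. No test was run, because there is 1 group. All 10 genes are named, and single sites by highest or lowest score, motif or region. Genes and lists were chosen with earlier results of these data known. Counting was tested on simulated data (Python 3.11.15, numpy 2.4.6, scipy 1.17.1, matplotlib 3.10.9).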

Additional observations from a re-analysis of the deposited data

How the results depend on the processing

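The list pools the libraries, so no replicate could be left out, and depth per site is unknown. No paired analysis was possible because all libraries belong to 1 group. With sites scoring at least 0.7 only, 11 sites remained in the 10 genes and the share at DRACH was 100%. Over GGACT motifs, the listed share was 0% in the long coding exon and 8.33% in the 3′ UTR. Without KLF16 the 3′ UTR share was 1.49%, and with only the genes that hold a site, an alternative chosen after seeing the data, it was 6.67%. KLF13 and KLF16 tied for the most sites, so each was left out in turn. In the other 27 of 33 alternatives (canonical transcripts, RAC motifs, motifs over 100 nt from junctions and linkers left out among them) values moved by less than their intervals. The finger codons and other coding exons had no listed motif under any alternative run, and the long coding exon share was 0.478 to 3.57% in the alternatives other than GGACT.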
